A study of Mus musculus with 18 samples.

Results

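The adhesion plaque is the protein layer that joins clustered integrins to actin filaments, and 10 of its genes were followed here: Tln1 and Vcl, which link integrins to actin; Zyx, Lpp, Tes and Pdlim7, LIM-domain proteins of the plaque and of actin bundles; and Pxn, Bcar1, Ptk2 and Ilk, scaffolds and kinases of adhesion signalling. They were chosen by name for these roles, with earlier results of these data known. Counts of calls among them are therefore no independent test of the set. Each symbol matched 1 Ensembl gene among the 46078 genes of the count table. RNA was sequenced from wild-type E14 mouse embryonic stem cells (mESCs), 1 established line, after 24 h in serum plus LIF on polyacrylamide hydrogels carrying fibronectin. Soft gels had a stiffness near 750 Pa and stiff gels near 160 kPa. Each stiffness was combined with AHA at 16 mM, called low, 48 mM, called mid, or 80 mM, called high, AHA being the co-factor that tethers extracellular matrix (ECM) to the gel, and each of the 6 combinations had 3 libraries. No group differed from another in genotype, medium or ECM protein.

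When integrins bind ECM, talin (Tln1) couples their tails to actin, and force on talin uncovers sites that vinculin (Vcl) binds. Paxillin (Pxn), focal adhesion kinase (Ptk2) and p130Cas (Bcar1) then relay signals from the plaque. Zyxin (Zyx) and its relative Lpp move onto adhesions and actin fibres under tension. All of this takes place in proteins, whereas the measurements below are of transcripts.

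Gene counts per library ranged from 5850621 to 9290261. ERCC spike-in RNAs took 0.607 to 0.725% of counts in 17 libraries and 1.37% in 1 library, soft, high AHA replicate 1. That library was left out of means and tests unless stated, which left 8 soft and 9 stiff libraries. Nothing in the labels says that replicates were separate cultures, so p-values measure the spread between libraries, which may be technical. The summed level of 8 mESC markers was 2650 to 2850 CPM (counts scaled to a common library total) on soft and 2455 to 2570 CPM on stiff substrates, and all 8 were detected. For 8 fibroblast markers the sum was 119 to 200 CPM on soft and 173 to 244 CPM on stiff substrates, most of it from the collagen gene Col1a1, while the median library had 0 CPM of Dcn and of Lum. For 6 trophectoderm markers the sum was 176 to 201 CPM on soft and 170 to 193 CPM on stiff substrates. It was 36.8 to 51.2 and 37.3 to 49.3 CPM for 7 primitive endoderm markers. For 5 mesoderm markers it was 18.0 to 30.3 and 18.5 to 33.5 CPM, and for 4 neurectoderm markers 15.7 to 24.1 and 10.6 to 19.1 CPM. Neither the presence of such cells nor their part in the results below was tested. In bulk RNA, fewer cells of a type and less RNA per cell cannot be told apart.

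Promoters were examined because SRF and TEAD factors are known regulators of cytoskeletal genes. RefSeq entries of GRCm38.p6, each covering 250 bases before and 50 after a start site, were found for 8 of the 10 genes, in 11 entries. The SRF CArG box was searched as CCWWWWWWGG, W being A or T, and the TEAD MCAT motif as GGAATG, both on either strand. CArG boxes were present in 1.63% of all 32817 promoter entries and MCAT motifs in 14.7%. Vcl was the 1 gene with a CArG box, 227 bases before its start, and it also held an MCAT motif 143 bases before it. Lpp held an MCAT motif 182 bases before the start of its second entry, and no other entry of the 8 genes held either motif. The upstream 250 bases of Vcl and of that Lpp entry are shown with the motifs in capitals, followed by the first Bcar1 entry, which holds neither, for comparison. The 3 windows overlap no annotated exon.
Vcl, chr14:20929148-20929397, + strand: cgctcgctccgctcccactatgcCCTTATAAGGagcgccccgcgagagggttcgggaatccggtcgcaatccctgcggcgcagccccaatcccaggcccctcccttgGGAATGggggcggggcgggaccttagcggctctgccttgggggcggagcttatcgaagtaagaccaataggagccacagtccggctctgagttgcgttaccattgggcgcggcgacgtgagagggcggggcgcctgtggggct
Lpp, chr16:24721605-24721854, + strand: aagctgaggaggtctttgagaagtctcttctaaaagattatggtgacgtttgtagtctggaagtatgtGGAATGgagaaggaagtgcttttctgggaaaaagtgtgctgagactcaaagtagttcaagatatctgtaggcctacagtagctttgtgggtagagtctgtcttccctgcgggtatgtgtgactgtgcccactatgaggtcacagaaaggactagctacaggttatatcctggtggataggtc
Bcar1, chr8:111743850-111744099, - strand: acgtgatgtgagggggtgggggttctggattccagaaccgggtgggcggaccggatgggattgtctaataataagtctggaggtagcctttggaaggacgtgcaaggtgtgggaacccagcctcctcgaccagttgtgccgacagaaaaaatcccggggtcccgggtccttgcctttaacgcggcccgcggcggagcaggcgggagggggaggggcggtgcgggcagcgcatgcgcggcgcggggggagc
A match of letters is a description and not a measured binding site.

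The 9 transcripts that could be tested differed widely in level. In CPM per kb of merged exon, averaged over 17 libraries, the order was Bcar1 at 56.4 ± 5.57 (SD), Tln1 at 47.0 ± 4.78, Pdlim7 at 42.1 ± 6.54, Vcl at 34.4 ± 3.29 and Zyx at 33.8 ± 5.65. Then came Ptk2 at 14.2 ± 0.857, Pxn at 10.5 ± 0.950, Lpp at 10.5 ± 1.81 and Tes at 5.60 ± 0.687 CPM per kb. Vcl stood above Zyx in 10 of the 17 libraries and Pxn above Lpp in 8 of 17, so neither of these neighbours was separated. Tln1 exceeded Pdlim7 in 16 of 17 libraries, and every other gene exceeded the next in all 17. When the longest transcript replaced merged exons as the length, Zyx moved to the second place behind Bcar1, so the order inside the upper 5 depends on the length used.

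**Figure D1:**
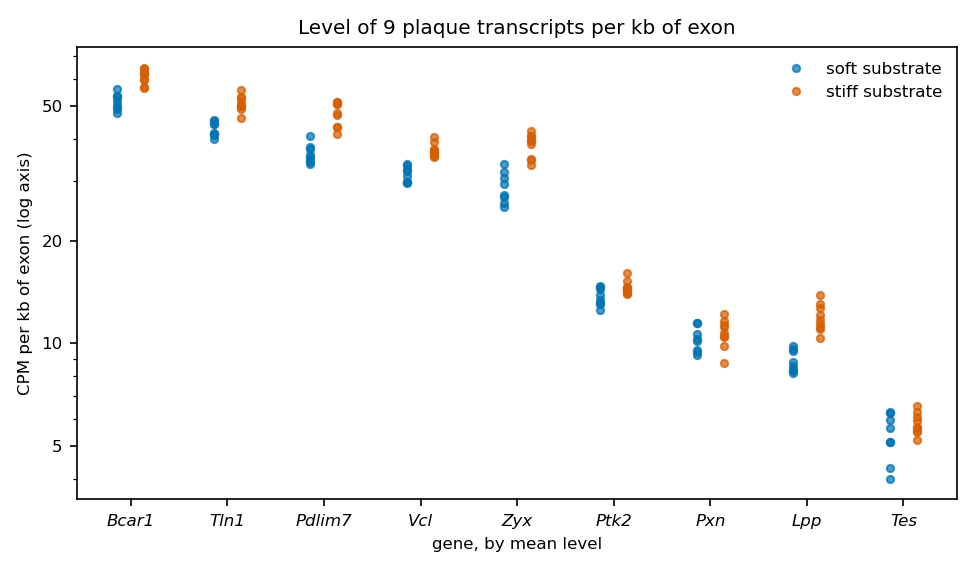
Level of 9 plaque transcripts in CPM per kb of merged exon (log axis), with 1 point per library for 8 soft (blue) and 9 stiff (orange) libraries. The 5 upper genes average 33.8 to 56.4 and Tes, the lowest, 5.60.

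Ilk, which encodes integrin-linked kinase, could not be followed. It had 0 to 11 counts per library and failed the filter on low counts, so 9 of the 10 genes were tested. The gene lies at chr7:105736592-105742925 on the + strand, and 89.7% of its exon bases lie under exons of Rrp8 and Taf10 on the opposite strand. The sources used here do not state if read strand entered the counting. Among protein-coding genes with at least 80% of their exon bases under exons of the opposite strand, 11 of 77 passed the filter, against 9303 of 16284 genes with none. Smaller overlaps did not go with fewer passing genes, at 3480 of 4232 above 0 and under 20% and 644 of 926 from 20 to under 80%. The count of Ilk was therefore not read as a level of its transcript. Exon overlap with an opposite gene was 25.5% for Vcl (Ap3m1, whose own average log2 difference of soft minus stiff was -0.07 ± 0.071, SE, adjusted p = 0.63), 4.38% for Zyx (Epha1), 3.67% for Tln1 (Creb3), 2.11% for Tes and 0.372% for Lpp.

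The main comparison asked whether plaque transcripts depend on substrate stiffness. Averaged over the 3 AHA concentrations, 6 of the 9 genes were lower on soft substrates, by 14.6 to 24.8%: Lpp, Zyx, Pdlim7, Tln1, Bcar1 and Vcl in edgeR's quasi-likelihood test at a Benjamini-Hochberg adjusted p below 0.05. Of all 13438 genes tested, 4.82% were called lower in this contrast. The remaining Pxn, Tes and Ptk2 did not pass the test. The median log2 fold change was -0.24 over the 9 genes and 0.00 over all genes tested. For 5 of the 9 genes every soft library lay below every stiff library, as for 0.871% of all genes tested, and Zyx was the called gene whose libraries overlapped.

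**Figure D2:**
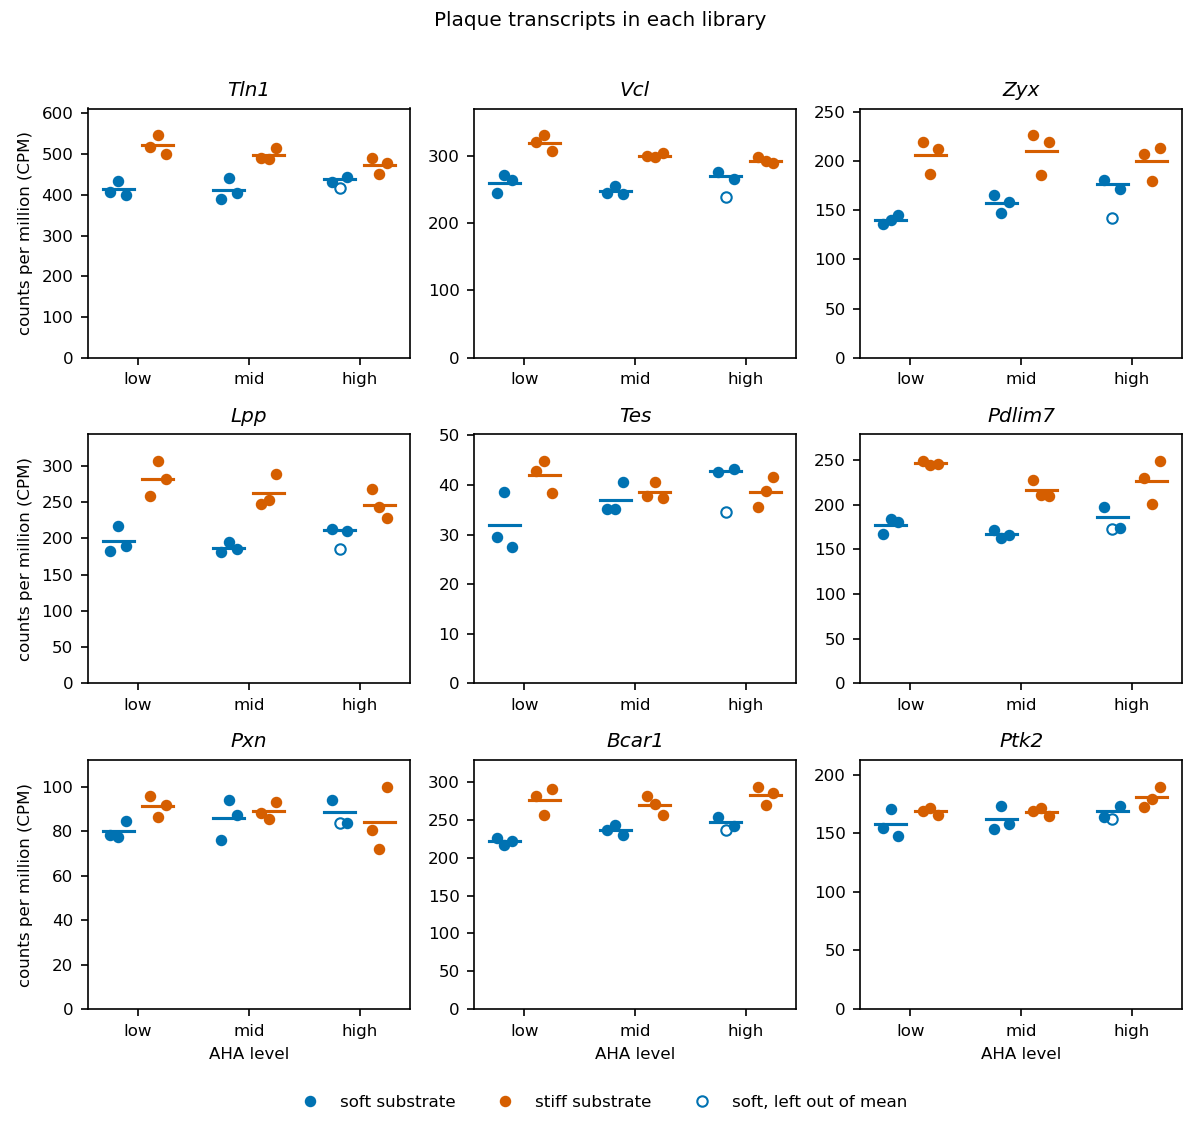
CPM of 9 plaque transcripts in each library at low, mid and high AHA on soft (blue) and stiff (orange) substrates, with bars at group means and the left-out soft, high AHA library as an open circle. Stiff libraries sit above soft ones for Tln1, Vcl, Lpp, Pdlim7 and Bcar1 at every AHA level. Over the 3 levels together the colours mix for Pxn, Tes, Ptk2 and, at high AHA, Zyx.

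Both actin linkers were lower on soft substrates. Vcl (chr14:20929398-21033676, + strand of GRCm38) had 245, 272 and 263 CPM in the soft, low AHA libraries and 320, 330 and 306 CPM in the stiff ones. At mid AHA it had 244, 255 and 243 CPM on soft against 299, 297 and 304 CPM on stiff substrates. At high AHA the 2 soft libraries had 276 and 265 CPM and the 3 stiff libraries 298, 291 and 289 CPM. The groups did not overlap at any AHA level. Vcl was lower on soft substrates by 18.3% at low AHA (adjusted p = 2.2e-06) and by 17.6% at mid AHA (adjusted p = 8.9e-06), with a log2 difference of -0.11 ± 0.053 (SE) at high AHA (adjusted p = 0.41). The average log2 fold change was -0.23 ± 0.029 (adjusted p = 8.6e-11).

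Tln1 (chr4:43531519-43562691, - strand) had the highest CPM of the 9 genes. It had 407, 434 and 401 CPM on soft and 518, 547 and 501 CPM on stiff substrates at low AHA, and 390, 441 and 404 against 490, 489 and 515 CPM at mid AHA. At high AHA the values were 432 and 444 CPM on soft and 490, 451 and 479 CPM on stiff substrates. Soft libraries were again the lower ones throughout. The log2 fold change was -0.33 ± 0.044 at low, -0.28 ± 0.043 at mid and -0.12 ± 0.049 at high AHA, with adjusted p-values of 1.2e-09, 9.4e-07 and 0.33.

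Zyx (chr6:42349630-42360213, + strand), a LIM protein that recruits Ena/VASP proteins, was lower on soft substrates at low and mid AHA. It had 136, 140 and 145 CPM on soft, low AHA substrates and 220, 187 and 213 CPM on stiff ones. At mid AHA the libraries had 165, 147 and 159 CPM against 226, 186 and 219 CPM. At high AHA they had 181 and 172 CPM against 208, 180 and 214 CPM, where the lowest stiff library fell between the soft ones. Zyx was lower on soft substrates by 32.3% at low AHA (adjusted p = 4.1e-11) and by 25.1% at mid AHA (adjusted p = 5.1e-07), with a log2 difference of -0.19 ± 0.068 at high AHA (adjusted p = 0.20). With soft, high AHA replicate 2 left out in place of replicate 1, the high AHA difference was -0.36 and called (adjusted p = 0.0034, against 0.0034 to 0.61 over all alternatives).

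Lpp (chr16:24393507-24992578, + strand), the relative of zyxin, was also lower on soft substrates at low and mid AHA. Its values were 183, 217 and 189 CPM on soft against 258, 307 and 281 CPM on stiff substrates at low AHA, and 181, 195 and 185 against 247, 252 and 288 CPM at mid AHA. At high AHA it had 213 and 209 CPM against 267, 243 and 228 CPM. No soft library reached the lowest stiff one. Lpp was lower on soft substrates by 30.1% at low AHA (adjusted p = 2.4e-08) and 28.9% at mid AHA (adjusted p = 1.3e-07), and the log2 difference at high AHA was -0.22 ± 0.069 (adjusted p = 0.12). With all genes of at least 2 counts the high AHA difference was called (-0.22, adjusted p = 0.033, against 0.016 to 0.46 over all alternatives). The average log2 fold change was -0.41 ± 0.037 (adjusted p = 1.9e-12). The log2 fold changes of Zyx (-0.56 ± 0.063) and Lpp (-0.52 ± 0.062) at low AHA lay within their errors, as did the averages of both genes (-0.39 ± 0.037 for Zyx), so neither was ranked above the other.

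Pdlim7 (chr13:55495795-55513676, - strand), a PDZ-LIM protein of actin filaments, was the 1 gene called at all 3 AHA levels in the main fit. With all 18 libraries Vcl, Lpp and Bcar1 were so too, as was Lpp with all genes of at least 2 counts. Pdlim7 had 167, 184 and 181 CPM on soft and 249, 244 and 246 CPM on stiff substrates at low AHA. The mid AHA values were 172, 163 and 166 against 228, 211 and 210 CPM, and the high AHA values 198 and 174 against 230, 200 and 248 CPM. The closest pair of libraries, at high AHA, was 198 CPM on soft and 200 CPM on stiff substrates. Pdlim7 was lower on soft substrates by 28.1%, 22.6% and 18.1% at low, mid and high AHA (adjusted p = 2.5e-11, 4.0e-07 and 0.0031). The call at high AHA was lost without replicate 3 of the soft, high AHA group (adjusted p = 0.33) and without replicate 3 of the stiff, high AHA group (adjusted p = 0.15).

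Tes (chr6:17065149-17105828, + strand), the LIM protein testin, had the lowest level of the tested genes. It had 29.5, 38.7 and 27.4 CPM on soft and 42.9, 44.8 and 38.5 CPM on stiff substrates at low AHA. At mid AHA the libraries overlapped, at 35.1, 35.1 and 40.7 against 37.8, 40.6 and 37.4 CPM. At high AHA the 2 soft libraries, at 42.6 and 43.1 CPM, lay above the stiff ones at 35.6, 38.8 and 41.5 CPM, while the left-out soft library had 34.6 CPM. Tes was called lower on soft substrates at low AHA (log2 fold change -0.40 ± 0.12, adjusted p = 0.035), with overlapping libraries. That call was lost without replicate 1 or 3 of the soft, low AHA group (adjusted p = 0.21 and 0.30), without replicate 1 or 2 of the stiff, low AHA group (adjusted p = 0.14 for each) and with DESeq2 (adjusted p = 0.073), and over all alternatives the adjusted p ran from 0.0045 to 0.30. Its log2 differences of -0.07 ± 0.11 at mid and 0.15 ± 0.13 at high AHA did not pass the test.

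Of the signalling scaffolds, Bcar1 was lower on soft substrates and Pxn and Ptk2 were not called. Bcar1 (chr8:111710474-111743809, - strand) had 226, 217 and 223 CPM on soft against 281, 257 and 291 CPM on stiff substrates at low AHA, 237, 243 and 230 against 282, 272 and 257 CPM at mid AHA, and 254 and 242 against 294, 270 and 286 CPM at high AHA. Soft libraries were lower without overlap at each level. The log2 fold change was -0.32 ± 0.051 at low AHA (adjusted p = 7.6e-07), -0.19 ± 0.050 at mid AHA (adjusted p = 0.012) and -0.20 ± 0.056 at high AHA (adjusted p = 0.062). The mid AHA call was lost without replicate 1 or 3 of the soft group or replicate 1 or 2 of the stiff group (adjusted p from 0.062 to 0.14). The high AHA difference was called without replicate 2 of the stiff group (adjusted p = 0.034, against 0.0021 to 0.42 over all alternatives).

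Pxn (chr5:115506676-115555987, + strand) ranged from 76.0 to 93.9 CPM over the soft and from 72.02 to 100.04 CPM over the stiff libraries. Its low AHA libraries were separate, at 78.2, 77.3 and 84.4 CPM on soft and 95.7, 86.5 and 91.9 CPM on stiff substrates, but the log2 difference of -0.20 ± 0.082 had an adjusted p of 0.24. The average log2 difference was -0.06 ± 0.049 (95% interval -0.16 to 0.04, adjusted p = 0.54). Ptk2 (chr15:73205102-73423280, - strand), the gene for focal adhesion kinase, ranged from 148 to 174 CPM on soft and from 165 to 190 CPM on stiff substrates. Its average log2 difference was -0.08 ± 0.035 (95% interval -0.15 to -0.01, adjusted p = 0.13). With soft, high AHA replicate 3 left out in place of replicate 1 it was called lower (-0.10, adjusted p = 0.049, against 0.049 to 0.32 over all alternatives), which made 7 of the 9 genes called on average.

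The stiffness effect at each AHA concentration can be set side by side. At low AHA, 7 of the 9 genes were called lower on soft substrates (2.19% of all genes), at mid AHA 6 (1.85% of all genes) and at high AHA 1 (0.432% of all genes). Median log2 fold changes of the 9 genes were -0.33, -0.28 and -0.12, with medians over all genes of 0.00 in each case. Libraries were separate with soft below stiff for 7, 6 and 5 genes, against 9.60%, 9.48% and 12.4% of all genes. The high AHA contrast rests on 2 soft libraries. With all 18 libraries in the fit, 4 genes were called lower at high AHA (Vcl, Lpp, Pdlim7 and Bcar1), against 1.37% of all genes. When soft replicate 2 was left out in place of replicate 1, 5 genes were called (the same 4 and Zyx), against 1.56% of all genes. With replicate 3 left out instead, 4 genes were called, against 1.14%. The high AHA median was -0.17 with all 18 libraries and -0.22 and -0.19 with replicate 2 or 3 left out instead, so its distance from the low and mid AHA medians depends on the soft libraries used.

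**Figure D3:**
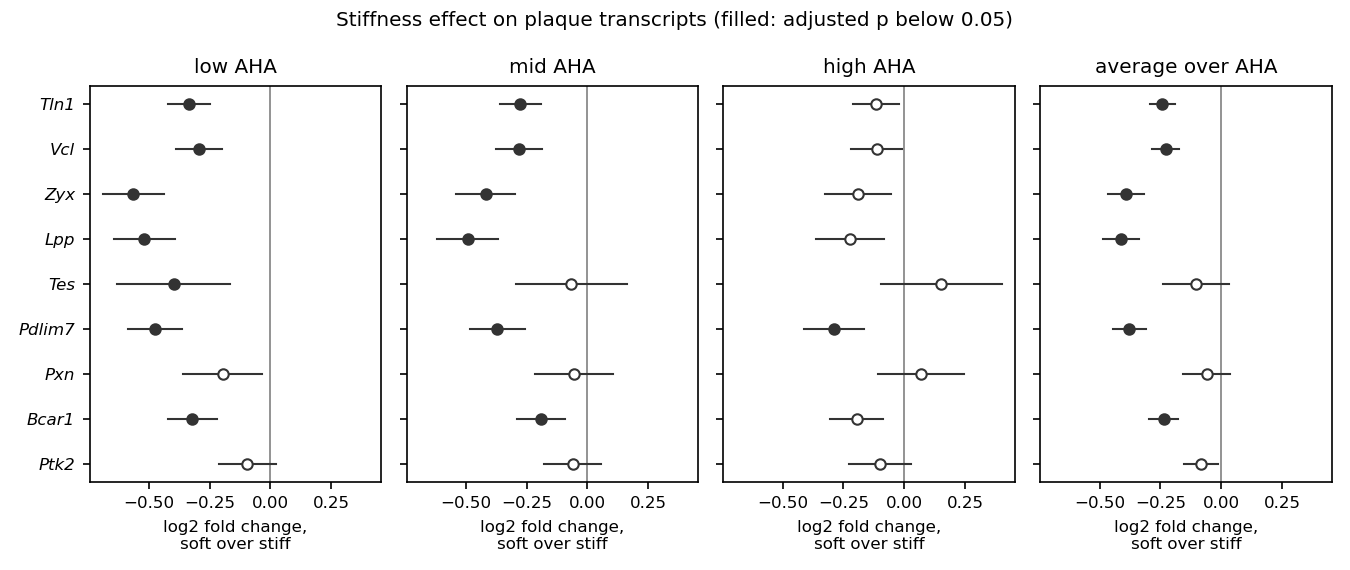
Log2 fold change of soft over stiff substrates for 9 plaque transcripts at low, mid and high AHA and on average, with 95% intervals and filled circles for adjusted p below 0.05. Filled circles number 7, 6, 1 and 6 from left to right, and points lie closer to 0 at high AHA for 8 of the 9 genes than at low AHA, Ptk2 being the exception.

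Those counts do not show that the effect differed between AHA levels, so the difference itself was tested. The stiffness by AHA interaction called none of the 9 genes in edgeR, where 0.0298% of all genes were called, and none of the 7 genes for which DESeq2 gave an adjusted p. At an unadjusted p below 0.05 the edgeR count was 5 of 9 (Zyx, Tln1, Lpp, Tes and Vcl), against 6.71% of all genes. The lowest adjusted p was 0.24, for Zyx, and leaving out replicate 2 of the stiff, low AHA group brought it to 0.045, within a range of 0.045 to 0.89 over all alternatives.

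High and low AHA were next compared within each stiffness. On soft gels Zyx was higher at high than at low AHA by 25.8% (log2 fold change 0.33 ± 0.070, adjusted p = 0.0070), and 0.216% of all genes were called higher there. Its libraries had 181 and 172 CPM at high and 136, 140 and 145 CPM at low AHA. The left-out library had 143 CPM, inside the low AHA range, and Zyx was not called with all 18 libraries (log2 fold change 0.23, adjusted p = 0.33, against 0.00063 to 0.59 over all alternatives). The call was also lost without replicate 1 of the soft, low AHA group (adjusted p = 0.12) or replicate 2 of the soft, high AHA group (adjusted p = 0.31). The other 8 genes had log2 differences from 0.06 (Vcl) to 0.43 (Tes, adjusted p = 0.15), none called. Without replicate 2 of the soft, low AHA group Tes was called as well (adjusted p = 0.031).

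On stiff substrates, none of the 9 genes was called between high and low AHA in edgeR, where 0.00744% of all genes were called, and none of the 4 genes for which DESeq2 gave an adjusted p. At an unadjusted p below 0.05 the edgeR count was 4 of 9, all lower at high AHA: Tln1 (-0.14 ± 0.043), Lpp (-0.19 ± 0.061), Vcl (-0.12 ± 0.047) and Pdlim7 (-0.12 ± 0.055, log2). Of all genes, 6.04% had an unadjusted p below 0.05. The median of the 9 log2 differences was -0.12 on stiff and 0.11 on soft substrates, and the comparisons share no libraries. The stiff median was -0.045 without stiff, high AHA replicate 2 and -0.074 without replicate 1. With soft replicate 2 or 3 left out in place of replicate 1, the soft median was 0.064 and 0.065.

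**Figure D4:**
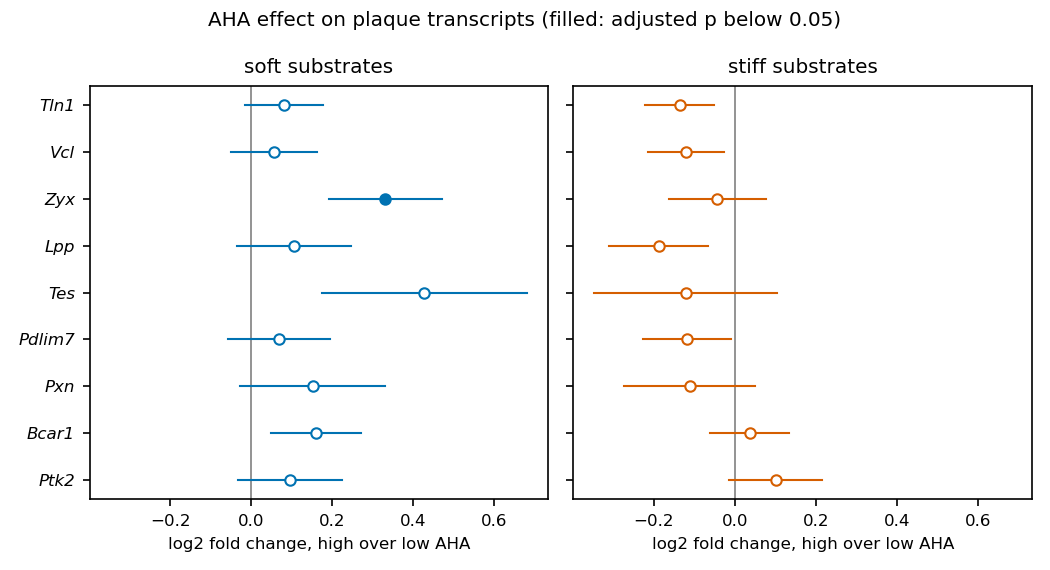
Log2 fold change of high over low AHA for 9 plaque transcripts on soft (left) and stiff (right) substrates, with 95% intervals and filled circles for adjusted p below 0.05. Points lie above 0 for 9 genes on soft and below 0 for 7 genes on stiff substrates, and Zyx on soft is the 1 filled circle.

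The left-out soft, high AHA library was lower than the 2 others of its group for 8 of the 9 genes, Pxn being the exception, and below every stiff, high AHA library for the same number of genes. Of all 13438 genes, 34.3% were lower in it than in the 2 others of its group and 28.4% lower than in every stiff, high AHA library. It had 239 CPM of Vcl, 143 CPM of Zyx, 417 CPM of Tln1, 186 CPM of Lpp and 173 CPM of Pdlim7. Results at high AHA on soft substrates thus depend on whether it is used.

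Members varied together to different degrees. Over 17 libraries, Pearson r of log2 CPM was above 0 for all 36 pairs of genes, with a median of 0.55. It reached 0.957 for Vcl with Lpp, 0.953 for Tln1 with Lpp and 0.946 for Vcl with Tln1, and was lowest for Pxn with Ptk2 at 0.235. The libraries share the stiffness difference, and after subtraction of group means the median fell to 0.20, with 23 of 36 pairs above 0. As Spearman's rho that median was 0.080, with 22 of 36 pairs above 0. Within groups 6 pairs were above 0.6. These were Zyx with Pdlim7 (0.680), Tln1 with Lpp (0.662), Tes with Ptk2 (0.661), Vcl with Lpp (0.656), Vcl with Tln1 (0.624) and Tln1 with Ptk2 (0.620). Zyx was at -0.0995 with Vcl and -0.154 with Tln1. Each r is a description over 17 libraries, which differ in group and in depth.

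**Figure D5:**
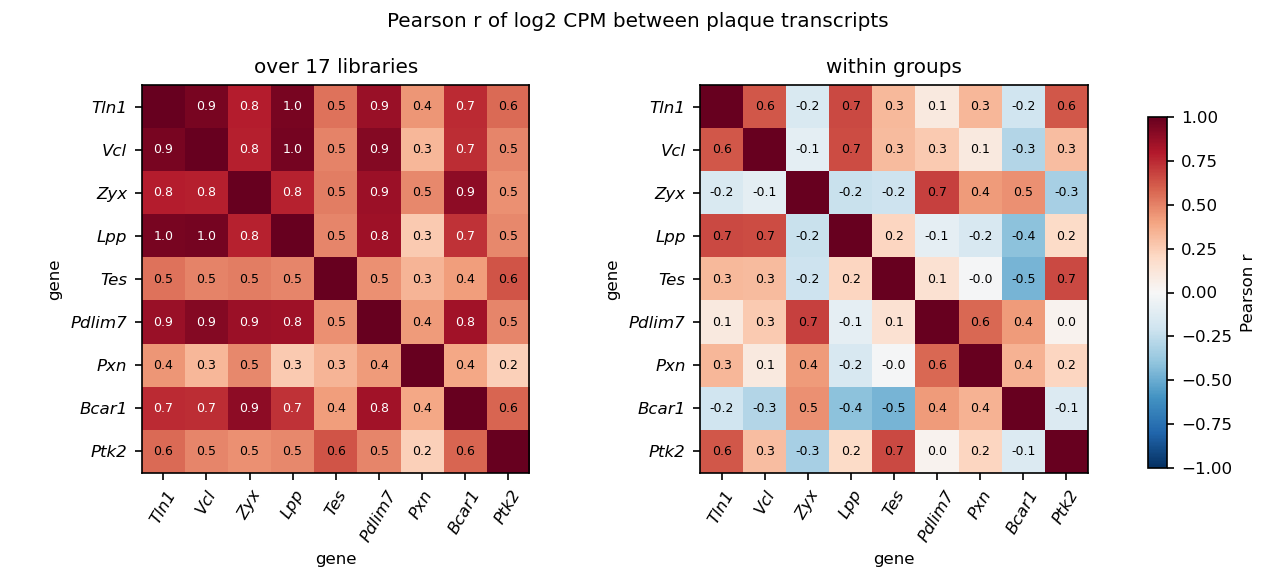
Pearson r of log2 CPM between plaque transcripts over 17 libraries (left) and after subtracting group means (right), from -1 (blue) to 1 (red). All 36 pairs are above 0 on the left and 23 on the right, where the highest is Zyx with Pdlim7 at 0.680.

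Of 9216 other genes with at least 10 CPM, the 5 whose log2 CPM followed the mean of the 9 plaque genes most closely were Thbs1 (r = 0.975), Phldb2 (0.958), Peg10 (0.957), Tpm1 (0.957) and Flnc (0.943), over 17 libraries. Thbs1 encodes the matrix protein thrombospondin-1, Tpm1 a tropomyosin and Flnc the actin cross-linker filamin C. Their levels on soft and stiff substrates were 308 ± 35.6 and 448 ± 25.7 CPM for Thbs1, 817 ± 69.5 and 1058 ± 47.9 CPM for Tpm1, and 326 ± 23.9 and 498 ± 37.4 CPM for Flnc (SD, n = 8 and 9). Phldb2 had 94.5 ± 15.0 and 143 ± 7.64 CPM, and Peg10 had 3888 ± 130 and 4616 ± 167 CPM. These genes were ranked by their likeness, so their agreement is no test.

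Other plaque genes gave a more mixed picture. The 5 lists held 59 genes, chosen by role with earlier results of these data known. On average over AHA, 17 of the 56 tested genes were called lower and 3 higher on soft substrates. Their median log2 fold change was -0.06. Of all genes tested, 4.82% were called lower and 3.77% higher in this contrast, against which the counts of the lists below can be read. Integrin-actin linkers counted 4 lower and 1 higher of 12, with Fermt1 (kindlin-1) at -0.52 ± 0.10, Tns2 at -0.37 ± 0.087 and Tns3 at -0.09 ± 0.025, and Kank2 higher at 0.13 ± 0.039. LIM adaptors counted 6 lower of 16 and none higher. Among these, Csrp1 had -0.30 ± 0.034, Ajuba -0.14 ± 0.028, Pdlim2 -0.43 ± 0.10 and Fhl3 -0.41 ± 0.10 on the log2 scale.

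In the ILK-PINCH-parvin list 1 of 4 tested genes was lower, Parva (alpha-parvin, an actin-binding partner of ILK) at -0.39 ± 0.062, while Parvb, Rsu1 and Lims1 were at 0.08, -0.02 and -0.01. Of 17 genes in the FAK-Src-Cas list 3 were lower and 1 higher. Dock1, an exchange factor that works with p130Cas and Crk, was the higher one at 0.19 ± 0.043. Src, Fyn and Cass4 were at -0.21 ± 0.052, -0.21 ± 0.058 and -0.72 ± 0.23. Cass4 had a low level, 2.52 ± 1.37 CPM on soft and 4.17 ± 1.17 CPM on stiff substrates (SD), and its libraries overlapped. In the Ena/VASP and vinexin list 3 of 7 were lower, namely Palld (palladin) at -0.30 ± 0.044, Sorbs3 (vinexin) at -0.41 ± 0.085 and Vasp at -0.12 ± 0.033. Enah, an actin regulator that zyxin recruits, was higher on soft substrates at 0.14 ± 0.022, with 909 ± 21.9 against 824 ± 12.8 CPM (SD). At single AHA levels, 7 of the 56 genes were called lower at low AHA, 4 at mid AHA and 1 at high AHA, against 2.19%, 1.85% and 0.432% of all genes. Higher calls numbered 1, 2 and 1, against 0.848%, 1.01% and 0.409% of all genes, and calls of 1 or 2 genes in 56 are too few to set apart from these shares.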

How the data were processed

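RNA was sequenced from 18 libraries of mESCs in 6 groups. Per the labels and the study's methods, the authors trimmed reads with Trim Galore 0.4.4, aligned them with GSNAP to GRCm38/mm10 and ran HTSeq for counts per Ensembl gene. These were deposited as raw counts without normalisation, and the use of strand is not given in the sources used here. The 5 HTSeq summary lines, 61.5 to 64.0% of each column sum, stayed out of library sizes and tests. Symbols, exons and coordinates came from GENCODE M21.

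Groups were taken from the labels, and replicates were numbered in sample order. Soft, high AHA replicate 1 was left out for its ERCC share, since the study discarded outliers of that kind. Protein-coding genes were filtered with filterByExpr at a minimum count of 10. TMM scaling and a robust quasi-likelihood fit followed in edgeR 4.0.16 (R 4.3.3), with 1 coefficient per group over 17 libraries. The differences tested were soft minus stiff per AHA level and averaged, their interaction, and high minus low AHA at each stiffness. P-values were adjusted by Benjamini-Hochberg over 13438 genes, and genes were called below 0.05. The common dispersion was 0.00286. CPM used TMM-scaled totals, and correlations used log2 CPM (prior count 2). The script was tested on simulated data. Replicate pairs differed by more than counting noise (chi-square per degree of freedom 1.82 to 3.07 in 18 pairs).

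All 10 genes are described, at most 4 genes per further list are named (lowest adjusted p of the average effect), and the 5 genes most like the mean were ranked by Pearson r. The genes, lists and tests were chosen with earlier results of these data known. Alternatives were RLE size factors, DESeq2 1.42.0, all genes with at least 2 counts, all annotated genes, all 18 libraries, another soft, high AHA library left out instead, only the 2 groups compared, and each library left out in turn. For levels and correlations they were the longest transcript, Spearman's rho and a prior count of 0.5.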

Additional observations from a re-analysis of the deposited data

How the results depend on the processing

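Of the 9 tested genes, 7 were called lower on soft substrates at low AHA, 6 at mid AHA and 6 on average, and no alternative moved these counts by more than 1.5 times. Leaving out each library in turn gave 6 to 7 at low AHA, 5 to 6 at mid AHA and 6 on average. At high AHA the count of 1 became 2 with all genes of at least 2 counts, 4 with all 18 libraries, 5 with soft, high AHA replicate 2 left out in place of replicate 1 and 4 with replicate 3 left out instead, and ranged from 0 to 2 with each library left out. It was 0 without replicate 3 of the soft or of the stiff, high AHA group and 2 without replicate 2 of the stiff one.

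The single gene called between the extreme AHA levels on soft substrates, Zyx, was not called (0 genes) with all 18 libraries or with replicate 2 or 3 left out instead, and the count ranged from 0 to 2 over single libraries. On stiff substrates the count was 0 throughout, and for the interaction it was 0 to 1. Signs reversed for these uncalled log2 differences. With replicate 2 of the soft, high AHA group left out in place of replicate 1, Pxn at high AHA was -0.018, and between AHA levels on soft substrates Vcl was -0.048 and Pdlim7 -0.031. Vcl in that contrast was also -0.014 with replicate 3 left out instead and -0.0020 with all 18 libraries. Over single libraries left out, Pxn ranged from -0.12 to 0.033 at mid AHA and from -0.031 to 0.21 at high AHA, and Pdlim7 from -0.035 to 0.16 between AHA levels on soft substrates. On stiff substrates Zyx ranged from -0.10 to 0.022 and Bcar1 from -0.0094 to 0.076. The cause was not tested.

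Over all genes, calls at high AHA were 113 and became 341 with all 18 libraries, 384 and 257 with replicate 2 or 3 left out instead, and 42 without soft, high AHA replicate 3. Calls at low AHA (408) fell to 245 and at mid AHA (384) to 222 when 1 library was left out. Calls were 34 between AHA levels on soft substrates (2 to 69 over single libraries), 1 on stiff substrates (0 to 15) and 4 for the interaction (up to 12).

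The 5 genes of highest level remained the upper 5 under the longest transcript, all 18 libraries and each library left out (5 of 5). The median r of 0.55 was 0.44 as Spearman's rho and 0.486 to 0.596 with single libraries left out. No paired analysis was possible because the labels carry no replicate numbers shared between groups. Of the tested genes Tes had the fewest counts (147 to 267 per library), which limits its precision.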
